A study of Hydractinia symbiolongicarpus with 45 samples.

Results

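The unfertilized egg of the cnidarian Hydractinia symbiolongicarpus was compared here between 2 kinds of RNA-seq library, poly(A)+ and rRNA-depleted. The 6 egg libraries were taken by their sample labels from the 45 samples of the series. They are 3 poly(A)+ libraries of clutches A, C and D and 3 rRNA-depleted libraries of the same clutches. The comparison asks which maternal RNAs are under- or over-represented after poly(A) selection. All 6 come from whole wild-type eggs without treatment, each egg sample was divided between the preparations, and the clutch letter therefore pairs the libraries. Each sample pooled eggs spawned by breeder colonies, so a value is a mean over many eggs. Poly(A) selection was carried out with oligo(dT) beads in repeated rounds. For rRNA depletion, antisense DNA oligomers and RNase H removed nuclear and mitochondrial rRNA, and short RNA was then removed by size.

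An egg carries mRNA made during oogenesis that serves the embryo until its own genome is transcribed. In many animals the tails of stored mRNAs are shortened in the oocyte and lengthened again later, which changes how well oligo(dT) holds them without any change in the amount of RNA. Canonical histone mRNAs of most animals end in a stem-loop in place of a poly(A) tail. A ratio between library types compares shares of a library, so amounts per egg were not measured. Within a library, fewer eggs that hold an RNA cannot be told apart from less of it per egg.

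Totals on protein-coding gene models were 20530081 to 30039305 counts for poly(A)+, against 11339468 to 16824435 for rRNA-depleted libraries. Values are given as normalised CPM (counts scaled to library size after TMM scaling, which sets aside the genes that differ most) where library types are compared. They are given as TPM (counts divided by coding length and then scaled to the same total) where genes are compared. Fold changes are on the log2 scale, poly(A)+ over rRNA-depleted, each with its standard error (SE) from a model with clutch as a term, and a gene was called at an adjusted p under 0.05 (edgeR, Benjamini-Hochberg over all genes tested). Clutch A stood apart from clutches C and D, with correlations across 11491 genes of 0.982 to 0.985 between A and the others for poly(A)+ and 0.975 for rRNA-depleted libraries. Between C and D they were 0.995 for poly(A)+ and 0.992 for rRNA-depleted libraries.

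Of 12861 gene models tested, 4151 were higher in poly(A)+ libraries (32.3%) and 4099 were lower (31.9%). The sizes of these differences were uneven. A further condition of at least 2-fold left 183 higher genes (1.42%) against 1583 lower genes (12.3%). Without the clutch block, 116 genes were at least 2-fold higher. Among the 11491 tested genes with a mean of at least 1 TPM in either library type, the middle 50% of log2 fold changes lay between -0.51 and 0.42, the 5th percentile was -1.72 and the 95th was 0.79. The 1st percentile was -5.10 and the 99th was 1.18.

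**Figure D1:**
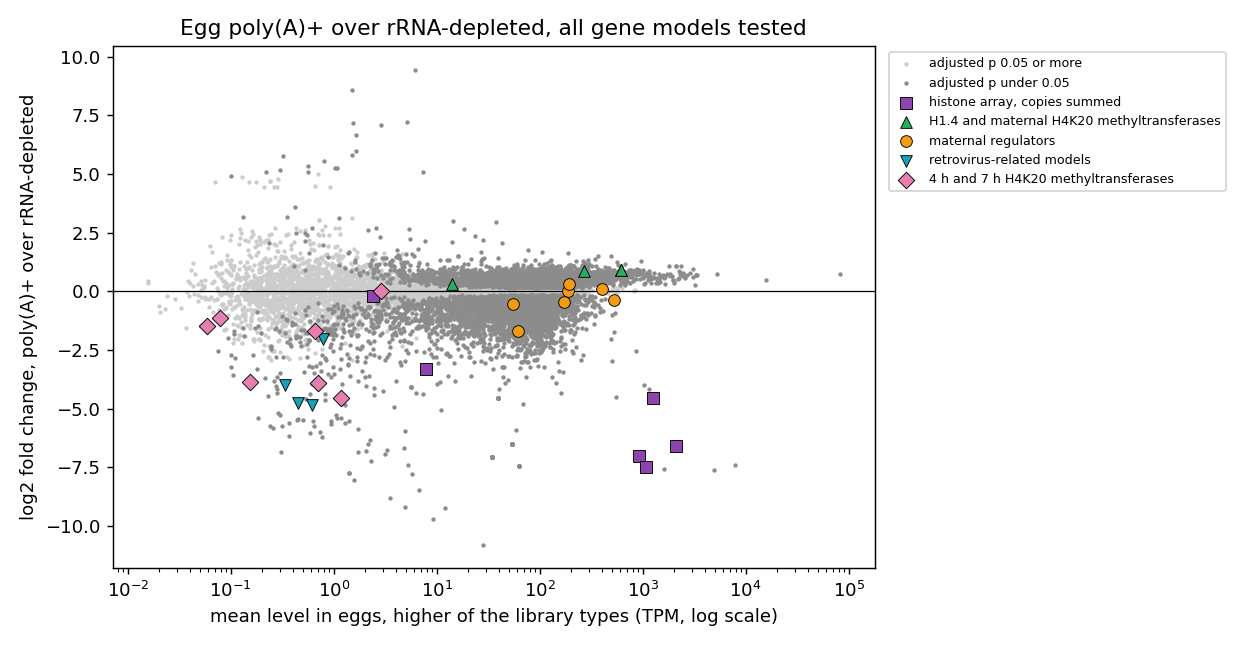
Log2 fold change of poly(A)+ over rRNA-depleted egg libraries (3 each) against the mean level in TPM (log scale) for every gene model tested, with the named groups in colour. H1.4 (0.91) and HyS0034.48 (0.87) lie near the upper edge of the cloud at their level, and histone array sequences such as HyS0051.3 (-7.49) lie far below it.

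To describe these genes further, those with at least 1 TPM were sorted by call and size. These calls come from the same egg libraries, so the TPM shares of the groups, here and in the next paragraph, follow from the sorting. They are given as a description. Genes at least 2-fold lower made up 2 groups that differ in other properties. The larger group, 1243 genes that were 2- to 8-fold lower, had a median coding length of 2304 bases (quartiles 1374 and 3803), and 4 of them (0.322%) shared identical counts with another gene model. It held 2.48 ± 0.33% of TPM in poly(A)+ libraries, against 7.79 ± 0.18% in rRNA-depleted ones (SD, n = 3 each). The smaller group, 212 gene models at least 8-fold lower, had a median coding length of 411 bases (quartiles 381 and 683). Of these models, 122 (57.5%) were copies with identical counts, which left 96 distinct sequences. Each copy enters the median, and 411 and 381 bases are the lengths of histone sequences with 39 and 27 copies. Lengths of the distinct sequences were not taken apart, so the groups cannot be compared in length. It held 0.0464 ± 0.0013% of TPM in poly(A)+ libraries, against 2.62 ± 0.46% in rRNA-depleted ones. Its 3 poly(A)+ values were 0.0477%, 0.0452% and 0.0464% in clutches A, C and D, against rRNA-depleted values of 2.70%, 2.12% and 3.04%.

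The higher genes were many but changed little. The 3967 genes called higher by less than 2-fold made up 69.8 ± 1.9% of TPM in poly(A)+ libraries, against 54.4 ± 0.74% in rRNA-depleted ones. Their median coding length was 1062 bases. The 163 genes at least 2-fold higher had a median of 612 bases and held 2.36 ± 0.24% of TPM in poly(A)+ libraries, against 1.231 ± 0.16% in rRNA-depleted libraries. The 2508 genes lower by less than 2-fold, with a median of 1968 bases, held 10.9 ± 1.0% of TPM in the poly(A)+ type, against 17.6 ± 0.50% in the rRNA-depleted type. The 3398 genes that were not called held 14.3 ± 0.81%, against 16.25 ± 0.37%, of the same totals.

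The most abundant maternal RNAs showed both patterns. Of the 100 gene models with the highest TPM in rRNA-depleted eggs, 90 were higher in poly(A)+ libraries, 7 were lower and 3 were not called, beside 32.3% higher and 31.9% lower among all genes tested. Of the 90, 4 were at least 2-fold higher. Just 6 of the 100 were at least 8-fold lower, with log2 fold changes from -7.63 to -4.02. These 6 had 4.50 to 55.5 TPM in poly(A)+ libraries, against 1019 to 7926 TPM in rRNA-depleted libraries. The others lay between -2.53 and 1.09, with a median of 0.63. One of the 6 is HyS4800.1, a gene model that the files do not annotate. It had 21.2, 9.43 and 12.5 CPM in poly(A)+ libraries of clutches A, C and D, against 3106, 1698 and 3853 CPM in rRNA-depleted libraries. The log2 fold change was -7.63 (SE 0.17, adjusted p = 4.06e-14), and its rRNA-depleted level of 4965 ± 1847 TPM (SD, n = 3) exceeded that of any single sequence of the histone array. The ranking took gene models singly, so reads divided among identical copies did not count together. With copies summed, the array sequences HyS0051.4, HyS0033.2, HyS0051.3 and HyS0051.1 had 2106, 1260, 1076 and 923 TPM in rRNA-depleted libraries. Each exceeds the 585 TPM of the lowest of the 100, and each was also at least 8-fold lower.

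Copies of histone genes of the tandem array made up 115 of the 212 gene models that were at least 8-fold lower. The scaffold HyS0385 holds 44 predicted histone gene models with 7 distinct sequences, and 167 gene models of the whole table carry these sequences. Because identical models share their reads evenly, the copies were summed. All 7 together made up 0.00793 ± 0.00056% of TPM in poly(A)+ libraries, against 0.538 ± 0.041% in rRNA-depleted ones (SD, n = 3 each), a 67.75-fold lower share. In the fit with copies summed, 3979 of 12653 features were called lower (31.4%), and 5 of the 6 array sequences tested were among them. The class of histone that each sequence encodes is not given with the counts, so they are named by their first copy.

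HyS0051.4, with 39 copies, had 6.92, 5.74 and 4.69 CPM in poly(A)+ libraries of clutches A, C and D, against 474, 613 and 634 CPM in rRNA-depleted libraries. Its log2 fold change was -6.59 (SE 0.14, adjusted p = 1.02e-13). HyS0051.1, with 27 copies, had 1.75, 1.86 and 1.61 CPM in poly(A)+ libraries, against 181, 287 and 229 CPM in rRNA-depleted libraries. The fitted levels of HyS0051.4 and HyS0051.1 were 96.4-fold and 128-fold lower, and libraries of the types did not overlap. HyS0051.3, with 17 copies of 312 bases, had 1.60, 1.02 and 1.02 CPM in poly(A)+ libraries, against 255, 171 and 245 CPM in rRNA-depleted libraries, and its log2 fold change of -7.49 (SE 0.11, adjusted p = 3.82e-15) was the lowest of the array.

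HyS0033.2, with 32 copies, was lower by a smaller factor. It had 17.3, 12.6 and 13.98 CPM in poly(A)+ libraries, against 369, 347 and 303 CPM in rRNA-depleted libraries, a log2 fold change of -4.53 (SE 0.09, adjusted p = 3.72e-14). Although its rRNA-depleted level was the second highest of the array, 1260 ± 113.3 TPM after 2106 ± 366.6 TPM for HyS0051.4 (SD, n = 3), its poly(A)+ level of 47.3 ± 4.6 TPM was the highest, with 18.4 ± 2.6 TPM for HyS0051.4. These intervals do not overlap.

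HyS0385.3, with 18 copies of 312 bases, was at a very low level in both library types. It had 0.155, 0.431 and 0.920 CPM in poly(A)+ libraries, against 0.594, 0.482 and 0.426 CPM in rRNA-depleted libraries, and the groups overlapped. Its log2 fold change was -0.20 (SE 0.65, adjusted p = 0.81). HyS0051.5, with 33 copies, had 0.286, 0 and 0.188 CPM in poly(A)+ libraries, against 0.693, 7.81 and 0.0661 CPM in rRNA-depleted libraries. It was called lower (adjusted p = 0.00702), but the call rests on clutch C: without that clutch the log2 fold change was -0.72 (adjusted p = 0.52), and DESeq2 gave an adjusted p of 0.457. HyS0385.10, a single model, had no counts in the 6 egg libraries.

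**Figure D2:**
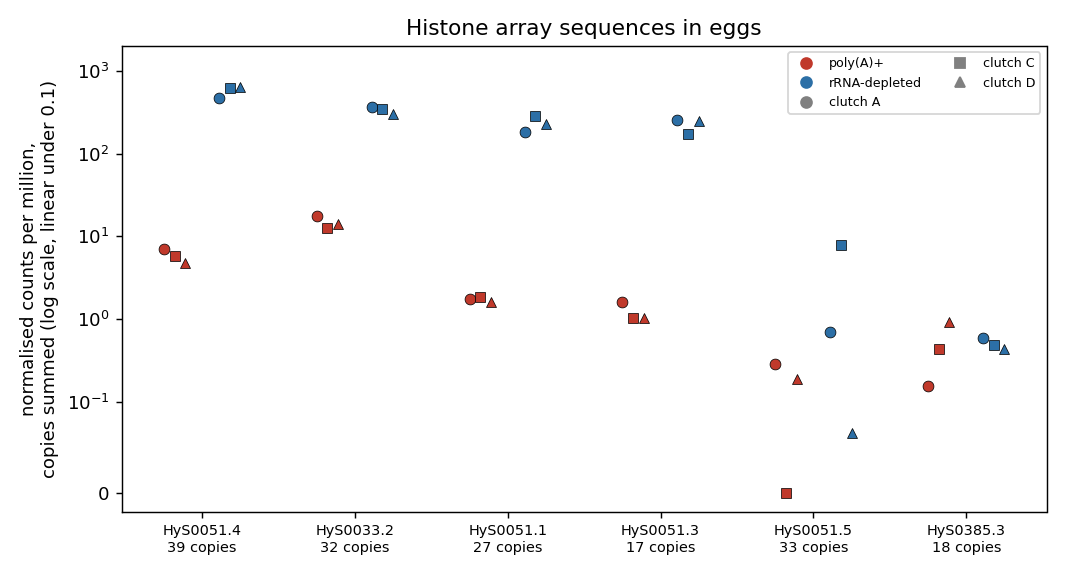
Normalised counts (CPM), summed over identical copies (log scale, linear under 0.1), of 6 histone array sequences in poly(A)+ (left) and rRNA-depleted (right) egg libraries, with 1 point per clutch. In HyS0051.4, HyS0033.2, HyS0051.1 and HyS0051.3 the highest poly(A)+ point is 17.3 CPM and the lowest rRNA-depleted point is 171 CPM, while the points of HyS0385.3 overlap.

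The linker histone H1.4, a maternal variant that binds DNA between nucleosomes, behaved in the other direction. Its 2 identical models, HyS0030.125 and HyS2746.2, each had 382, 298 and 315 CPM in poly(A)+ libraries of clutches A, C and D, against 201, 170 and 159 CPM in rRNA-depleted libraries. The log2 fold change was 0.91 (SE 0.07, adjusted p = 1.16e-08), and libraries of the types did not overlap. The predicted maternal H4K20 methyltransferase HyS0034.48, of the enzyme family that methylates lysine 20 of histone H4, was also higher. It had 236, 170 and 176 CPM in poly(A)+ libraries, against 132, 91.9 and 94.997 CPM in rRNA-depleted libraries, a log2 fold change of 0.87 (SE 0.06, adjusted p = 1.35e-08). HyS0117.8, the other maternal member, had 10.5, 10.0 and 10.7 CPM in poly(A)+ libraries, against 9.18, 8.196 and 7.59 CPM in rRNA-depleted libraries. It was higher in each clutch but did not pass the test (log2 fold change 0.32, SE 0.14, adjusted p = 0.0667), although it passed with library size as the only scaling (adjusted p = 0.0389).

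Predicted H4K20 methyltransferases that the study lists as activated in the embryo were near the detection limit in eggs. Of 22 such models, 13 of the 4 h.p.f. group (hours post fertilization) and 9 of the 7 h.p.f. group, 6 had no counts in the egg libraries and 7 passed the filter of 10 counts summed. Of these 7, 4 were lower and 3 were not called, at levels up to 2.86 TPM, beside 31.9% of all genes tested that were lower. A model at such levels passes the filter mainly through the library type where it is higher. HyS0112.3 had 0.180, 0.141 and 0.146 CPM in poly(A)+ libraries, against 1.84, 2.03 and 3.50 CPM in rRNA-depleted libraries, a log2 fold change of -3.90 (SE 0.48, adjusted p = 3.84e-06). HyS0114.13 had 2 counts over the poly(A)+ libraries and 30.4 over the rRNA-depleted libraries, a level 28.0-fold lower (95% exact interval 7.02 to 239, counting error only). HyS0013.295 was called with a log2 fold change of -1.70 but not without clutch C (-1.26, adjusted p = 0.066). HyS0004.476 had 1 count over poly(A)+ and 12 over rRNA-depleted libraries, and its call was lost with DESeq2 (adjusted p = 0.0741). HyS0109.11, the most abundant of the 7, had 6.75, 5.89 and 6.91 CPM in poly(A)+ libraries, against 6.92, 5.80 and 6.68 CPM in rRNA-depleted libraries, with overlapping groups (log2 fold change 0.01, SE 0.17, adjusted p = 0.971).

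Maternal regulators, listed here together with a receptor gene, differed among themselves. Of 7 tested, 1 was higher, 4 were lower and 2 were not called, with a median log2 fold change of -0.39 beside 0.02 over all genes tested. With 32.3% of all genes called higher and 31.9% lower, the counts of so short a list say little about it. The lowest was the receptor gene, the predicted metabotropic glutamate receptor HyS0020.263, which the study presents as a possible microRNA target. It had 35.7, 37.7 and 28.0 CPM in poly(A)+ libraries of clutches A, C and D, against 124, 98.8 and 107 CPM in rRNA-depleted libraries, a log2 fold change of -1.71 (SE 0.09, adjusted p = 3.30e-10). The library types did not overlap.

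The POU-domain factor Polynem (HyS0098.14), known in Hydractinia from stem cells, had 19.3, 39.7 and 36.35 CPM in poly(A)+ libraries, against 30.6, 50.8 and 54.7 CPM in rRNA-depleted libraries. It was lower in each clutch (log2 fold change -0.54, SE 0.09, adjusted p = 5.75e-05), but the groups overlapped because clutch A was low in both types, and without the clutch block the adjusted p was 0.19. The Smaug homolog HyS0016.179, an RNA-binding protein that in Drosophila recruits deadenylation to maternal mRNA, had 150, 170 and 152 CPM in poly(A)+ libraries, against 225, 219 and 211 CPM in rRNA-depleted libraries. Its log2 fold change was -0.48 (SE 0.07, adjusted p = 1.60e-05). The likely cell-cycle factor E2f2 (HyS0045.22) had 331, 405 and 374 CPM in poly(A)+ libraries, against 448, 499 and 506 CPM in rRNA-depleted libraries, a log2 fold change of -0.39 (SE 0.07, adjusted p = 7.91e-05).

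The HMG-box factor Sox4 (HyS0005.469) was the 1 regulator called higher. It had 149, 147 and 147 CPM in poly(A)+ libraries, against 111.3, 127 and 119 CPM in rRNA-depleted libraries (log2 fold change 0.31, SE 0.07, adjusted p = 0.000845). The ETS-family factor Etv3 (HyS0030.200) had 158, 147 and 150 CPM in poly(A)+ libraries, against 145, 156 and 151 CPM in rRNA-depleted libraries. Its groups overlapped, and its log2 fold change of 0.01 (SE 0.07, adjusted p = 0.908) was -0.05 without clutch A. The winged-helix factor Rfx7 (HyS0003.78) had 590, 661 and 642 CPM in poly(A)+ libraries, against 545, 627 and 619 CPM in rRNA-depleted libraries, and was not called (log2 fold change 0.08, SE 0.06, adjusted p = 0.296).

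**Figure D3:**
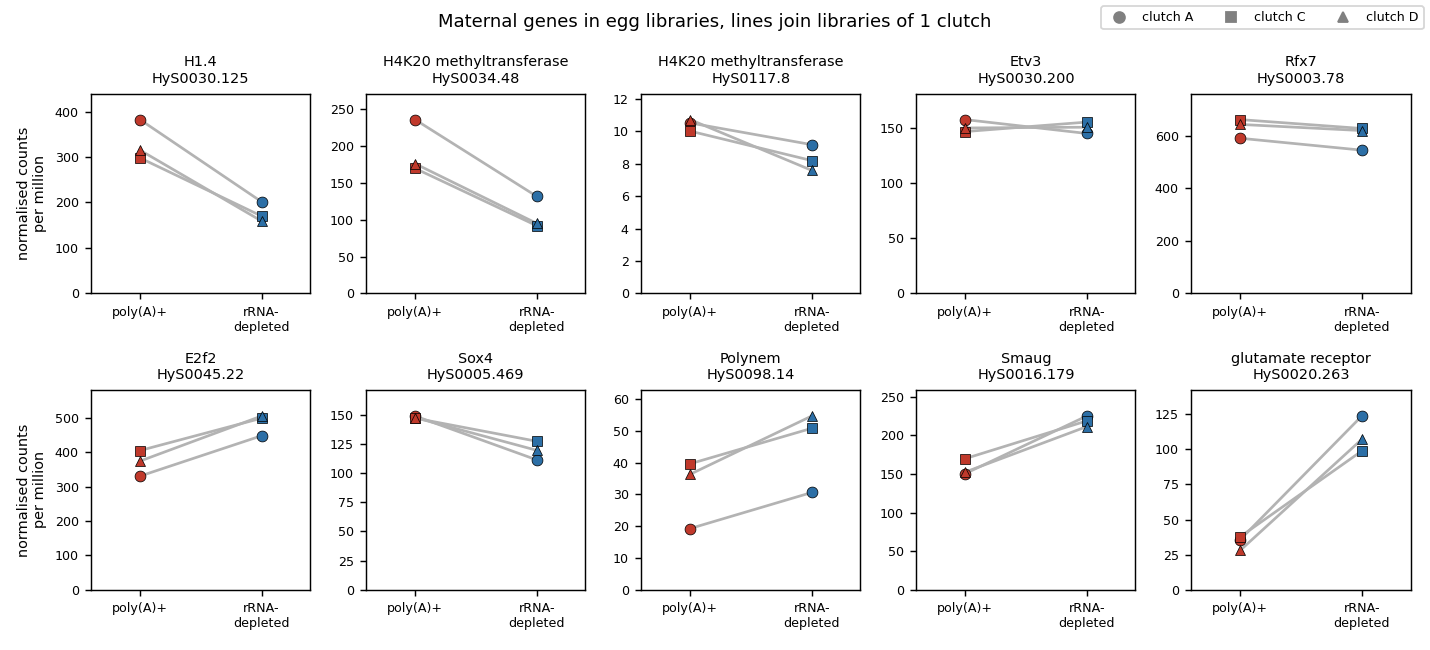
Normalised counts (CPM) of 10 maternal genes in poly(A)+ (left) and rRNA-depleted (right) egg libraries, with lines joining the libraries of 1 clutch and axes that start at 0. H1.4, HyS0034.48 and Sox4 lie higher on the left in each clutch, E2f2, Polynem, Smaug and the glutamate receptor lie lower on the left, and the lines of Etv3 cross.

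Genes that the study describes as activated in the embryo had few reads in eggs, and 1 of 3 was called lower, a share near the 31.9% of all genes tested. The likely Sp5 homolog HyS0057.112, a zinc-finger factor of Wnt signalling in other cnidarians, had 0.611, 1.226 and 1.30 CPM in poly(A)+ libraries, against 2.46, 3.35 and 2.97 CPM in rRNA-depleted libraries, and the groups did not overlap. Its log2 fold change was -1.53 (SE 0.31, adjusted p = 0.000456). The forkhead gene HyS0062.47 had 22 counts over poly(A)+ and 4 over rRNA-depleted libraries and was not called (log2 fold change 1.50, SE 1.006, adjusted p = 0.209). The predicted ammonium transporter HyS0101.18 had 1.12, 0.849 and 1.03 CPM in poly(A)+ libraries, against 1.10, 0.617 and 0.874 CPM in rRNA-depleted libraries (log2 fold change 0.20, SE 0.41, adjusted p = 0.699).

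Retrovirus-related models, open reading frames that resemble those of retroelements, were scarce in eggs. Of 5, 4 passed the filter and were called lower, at under 1 TPM in both library types, beside 31.9% of all genes tested that were lower. Such models pass mainly through the library type in which they are higher, so this count carries no weight either. HyS4714.1 had 0.359, 0.491 and 0.334 CPM in poly(A)+ libraries, against 1.99, 1.33 and 1.49 CPM in rRNA-depleted libraries, a log2 fold change of -2.03 (SE 0.46, adjusted p = 0.00112). HyS4764.1 had 1 count over poly(A)+ libraries and 23 over rRNA-depleted libraries, a level 42.4-fold lower (95% exact interval 6.89 to 1749). HyS4716.1 was 28.0-fold lower (8.81 to 292) and HyS4654.1 was 17.98-fold lower (5.50 to 193), while HyS0422.6 had 2 counts in all and was not tested. Single clutches weighed on HyS4654.1 and HyS4716.1. HyS4654.1 had 19.5, 1.19 and 3.47 counts in rRNA-depleted libraries of clutches A, C and D and was under the filter without clutch A. HyS4716.1 had a log2 fold change of -4.74, which was -3.79 without clutch A and -7.42 without clutch D, the 1 clutch with poly(A)+ counts.

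No gene model lies on the scaffold to which mitochondrial rRNA aligns, and 1 lies on the scaffold of tandem 45S rRNA copies. That model, HyS0316.1, had 0.204, 0.189 and 0.0932 CPM in poly(A)+ libraries, against 2.82, 3.08 and 3.23 CPM in rRNA-depleted libraries. Its log2 fold change was -4.14 (SE 0.44, adjusted p = 6.64e-07), and whether its reads come from a coding RNA was not tested.

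Unannotated models gave the largest differences among genes with at least 5 TPM in either type that moved alike in each clutch. HyS1659.2 had at most 0.234 counts in a poly(A)+ library, against 106, 187 and 172 counts in rRNA-depleted libraries of clutches A, C and D, and was at least 99.3-fold lower at a floor of 3 counts per library. In the other direction, HyS0230.2 had 3.01, 3.80 and 4.41 CPM in poly(A)+ libraries, against 0.269 CPM in the rRNA-depleted library of clutch A and less than 1 count in those of C and D (log2 fold change 5.08, SE 0.56, adjusted p = 1.09e-06). In the pilot pair of 1 h.p.f. embryos described further on, HyS0230.2 had 49.9 counts with poly(A) selection and 5.54 counts without it, a log2 ratio of -0.67 and so opposite in sign to the egg value. In poly(A)+ libraries of clutch A, HyS0230.2 had 0.0088 CPM after 1 h and 2.78 CPM after 2 h. HyS1659.2 had 5.23 CPM in the poly(A)+ library of clutch B after 7 h. Estimated counts of both models are not whole numbers, and whether their reads were divided among similar models was not tested. HyS0029.49 had 0.553, 4.77 and 4.82 CPM in poly(A)+ libraries, against 0, 0 and 1.43 CPM in rRNA-depleted libraries. Its groups overlapped, and its call (log2 fold change 2.98, adjusted p = 0.000283) was lost without the clutch block (adjusted p = 0.0893).

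Coding length varied with the ratio over the whole transcriptome. When the 11491 genes were divided into quintiles (groups of equal size) by coding length, the median log2 fold change was 0.38 in the shortest quintile (177 to 681 bases), then 0.24, 0.07 and -0.10, and -0.43 in the longest quintile (2550 to 46713 bases). In the shortest quintile 49.8% were called higher and 17.9% lower, and in the longest 14.7% were called higher and 63.2% lower. The share at least 2-fold lower was 25.3% in the longest quintile and 5.18% in the second, but 11.7% in the shortest. Of the 268 models behind this last share, 115 were identical copies of a few histone array sequences, each counted singly. They also enter the 17.9% called lower in the shortest quintile. The order of the medians held in each clutch taken alone, from 0.42, 0.35 and 0.38 in the shortest quintile of clutches A, C and D to -0.46, -0.28 and -0.36 in the longest. Full transcript lengths were not analysed here, and the lengths are of coding sequence alone.

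The median varied less with the level of a gene. By quintiles of rRNA-depleted TPM, the median was between -0.06 and 0.02 in the lower 4 quintiles and 0.26 in the highest (106 to 57129 TPM). The difference by coding length was present at each level: within the lowest quintile of TPM the shortest genes had a median of 0.20 and the longest -0.46, and within the highest quintile the values were 0.57 and -0.30.

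**Figure D4:**
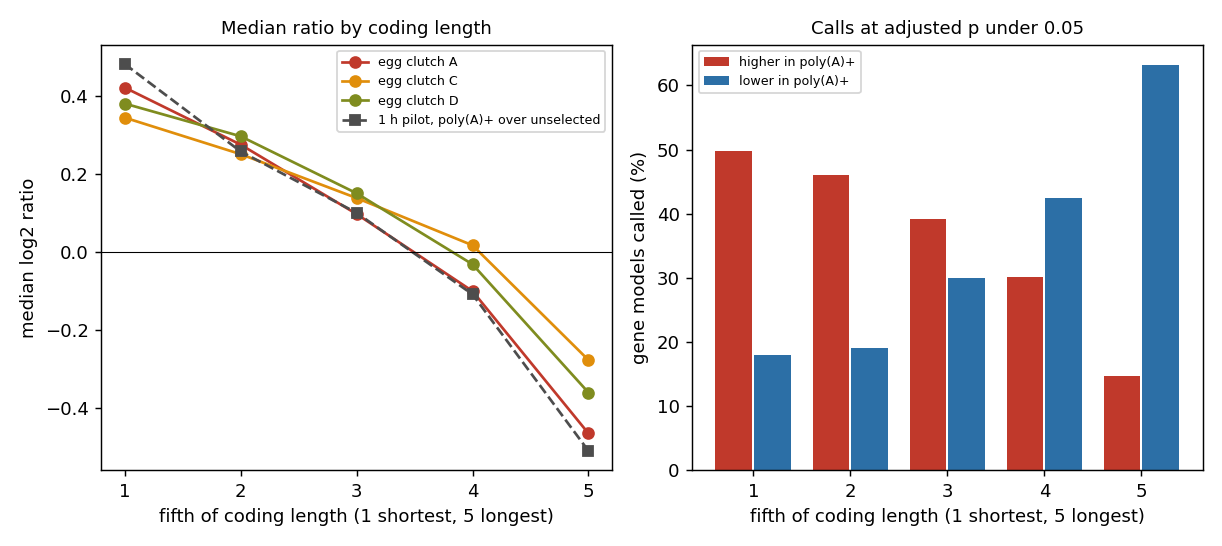
Left, median log2 ratio of poly(A)+ over rRNA-depleted counts by quintile of coding length, with 1 line per egg clutch and a dashed line for the 1 h.p.f. pilot pair. Right, percent of gene models called higher or lower in poly(A)+ egg libraries. The median goes down with length in each line, and calls of lower genes reach 63.2% in the longest quintile.

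The ratios were alike between clutches and in a separate preparation. Across 11491 genes, log2 ratios of clutches A, C and D correlated with r from 0.90 to 0.92, as a description over genes that share libraries within each ratio. Ratios of 2-fold or more to the lower side were seen in 1511, 1071 and 1213 genes of clutches A, C and D, and to the higher side in 344, 200 and 265. The series also holds a pilot pair of 1 h.p.f. embryos, 1 library with poly(A) selection and 1 without selection or depletion (7902891 and 548655 counts). It shares no library with the egg comparison and involves no rRNA depletion. Over 9369 genes with enough pilot counts, r between the pilot ratio and each egg ratio was 0.85 to 0.86. Of the genes 2- to 8-fold lower in egg poly(A)+ libraries, 1033 of 1040 (99.3%) had a pilot log2 ratio below 0 (median -1.38), as had 32 of 32 models from the group at least 8-fold lower (median -3.41). Of genes at least 2-fold higher, 74 of 81 (91.4%) had a ratio above 0 (median 0.70), and of genes not called 49.4% did. Only 32 of the 212 models at least 8-fold lower and 81 of the 163 genes at least 2-fold higher had enough pilot counts. The minimum includes 5 counts in the shallow unselected library, which a model reaches more easily when it is high without selection. In the pilot, HyS0051.4 had 6.66 CPM with poly(A) selection and 571 CPM without it, and HyS0033.2 had 16.1 CPM with selection and 227 CPM without.

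To see whether the egg ratios persisted, the ratio was followed in 11 later untreated samples with both library types. From 5 h.p.f. on the samples come from clutch B, which has no egg library, so stage and clutch cannot be told apart there. Genes 2- to 8-fold lower in eggs (1241 distinct sequences) had medians of -1.43, -1.17 and -1.25 in the egg clutches. In clutch A the medians were -1.18 after 0.5 h, -1.33 after 1 h, -1.30 after 2 h, -1.06 after 3 h and -0.82 after 4 h. In clutch C they were -1.23, -0.96 and -0.77 after 2, 3 and 4 h, and the last sample, of clutch B after 7 h, had -0.68. Genes at least 2-fold higher in eggs (159 distinct sequences) stayed between 0.86 and 1.46 in the later samples. Egg values selected these genes, so their egg medians are given as a description.

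**Figure D5:**
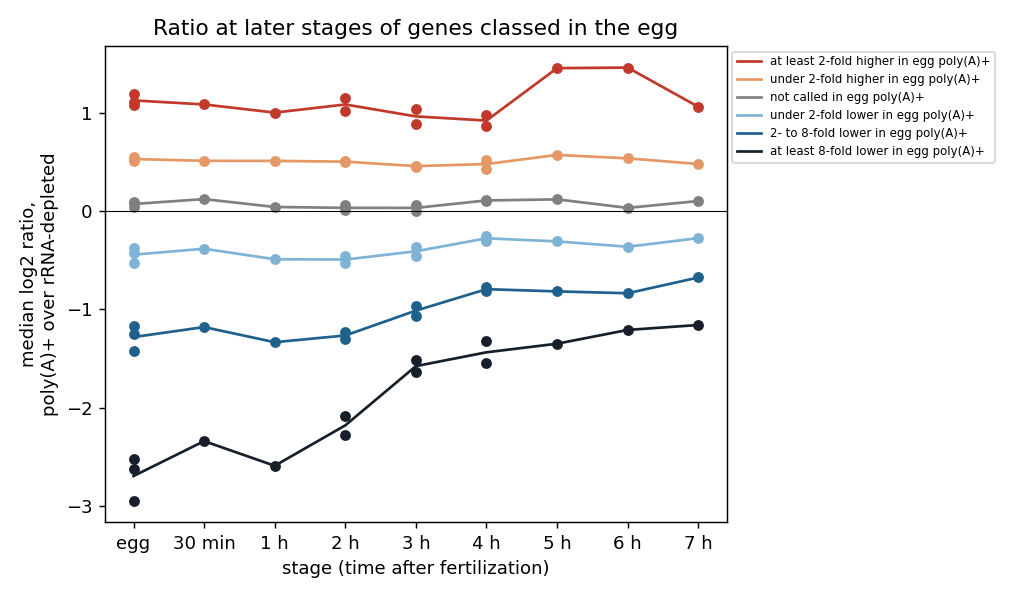
Median log2 ratio of poly(A)+ over rRNA-depleted counts at each stage for gene models grouped by their egg call (1 model per identical set), with 1 point per sample and lines through stage means. The 2- to 8-fold lower group lies between -1.43 and -1.17 in eggs and at -0.68 at 7 h.p.f., while the groups that were higher in eggs stay above 0.

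The change of the ratio between eggs and embryos at 2 and 3 h.p.f. was tested as an interaction over 14 libraries. Of 13795 genes tested, the ratio of 1238 was higher at 2 and 3 h.p.f. than in eggs (8.97%) and that of 2174 was lower (15.8%). With RLE scaling the counts were 1719 and 1891, so the excess of lower ratios depends on the scaling, and without the sample block they were 540 and 1437. The egg libraries enter both this test and the egg comparison.

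HyS0020.263, the glutamate receptor that was lowest in eggs of the list of maternal regulators, went further down. Its poly(A)+ level in clutches A and C was 6.23 and 6.37 CPM after 2 h, then 6.05 and 7.95 CPM after 3 h, while its rRNA-depleted level was 121, 107, 118.5 and 92.2 CPM in the same samples. The ratio fell by 2.39 on the log2 scale relative to eggs (SE 0.16, adjusted p = 1.61e-08). Etv3, not called in eggs, had 95.5 and 84.7 CPM after 2 h, then 62.49 and 55.3 CPM after 3 h, in poly(A)+ libraries of clutches A and C, against 141, 148, 146 and 145 CPM in rRNA-depleted libraries, a change of -1.06 (SE 0.10, adjusted p = 9.39e-07). Smaug had a change of -0.76 (SE 0.09, adjusted p = 1.55e-05), with 118.9, 93.6, 93.1 and 88.7 CPM in poly(A)+ libraries, against 245, 210.1, 216 and 215 CPM in rRNA-depleted libraries.

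Other members changed in the opposite direction or did not pass, apart from HyS0385.3 of the histone array and the retrovirus-related model HyS4714.1. The change of HyS4714.1 was -1.31 (SE 0.45, adjusted p = 0.0442), and this call was lost without the sample block. The Sp5 homolog had 2.02, 3.10, 3.04 and 5.46 CPM in poly(A)+ libraries of these embryos, against 1.95, 3.98, 1.76 and 3.43 CPM in rRNA-depleted libraries, a change of 1.75 (SE 0.34, adjusted p = 0.000998) that was not called without the sample block (adjusted p = 0.0681). The change of Sox4 was 0.31 (SE 0.10, adjusted p = 0.033), and this call was lost without 2 h.p.f. clutch A or egg clutch C or D (adjusted p 0.0723 to 0.105) and without the sample block (adjusted p = 0.207). H1.4 (0.06, SE 0.10, adjusted p = 0.798) and HyS0034.48 (0.10, SE 0.09, adjusted p = 0.554) did not pass, and neither did E2f2, Polynem or HyS0117.8. Rfx7 did not pass (0.23, adjusted p = 0.0829), but this depends on the setting. It passed with RLE scaling (0.31, adjusted p = 0.0197), library size only, DESeq2 (adjusted p = 0.00156), no filter, identical models summed, and without clutch C at 2 h, clutch A at 3 h or egg clutch A. HyS0385.3 went down, with a change of -7.21 (SE 0.54, adjusted p = 6.11e-08, copies summed). It had 0.548, 0.209, 1.13 and 0.442 CPM in poly(A)+ libraries of these embryos, against 30.9, 21.4, 447 and 181 CPM in rRNA-depleted libraries. In rRNA-depleted eggs of clutches A, C and D it had 0.604, 0.483 and 0.428 CPM on the same scale. Its ratio thus fell with a rise in the rRNA-depleted level, which was not seen for Etv3 or Smaug.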

How the data were processed

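The authors trimmed paired, stranded reads with Trim Galore 0.6.6 (cutadapt 1.15) and assigned them with kallisto 0.46.1 to the Hsym v1.0 protein-coding transcriptome. They deposited estimated counts per gene model (22022 models), not normalized, with coding lengths. Kallisto divides reads evenly among identical models, and 1178 models in 360 sets had identical counts. Counts were rounded. Genes with at least 10 counts over the libraries of a fit were tested with edgeR 4.0.16 in R 4.3.3 (quasi-likelihood F test, TMM, Benjamini-Hochberg adjustment at 0.05), with clutch as a block in the egg fit (2 residual degrees of freedom) and the biological sample as a block in the interaction fit (4). The pairing comes from dividing each sample between preparations. Deviations from group means correlated at 0.70, 0.48 and 0.42 between libraries of clutches A, C and D, each above any other pairing. The highest values of other pairings were -0.51, 0.36 and 0.34, so the margin was narrow for C and D. None of the replicate libraries held identical values. Clutches are taken as separate spawnings, and otherwise p-values measure technical spread. Ratios per sample used TMM-normalised CPM plus 0.5. TPM were computed from counts and coding lengths. Tests were tried on simulated data. Lists and gene names come from the study, and the members and lists were chosen with earlier results of these data known. Named genes are the list members, 1 model per histone array sequence, and 2 higher and 2 lower models with the largest change among called genes of at least 5 TPM that moved alike in each clutch. The class limit of 8-fold, the pilot minimum (mean of 20 counts and 5 in the unselected library) and the top 100 were set after the values were seen. Genome positions were not analysed here, since no identifier matched the reference table at hand. DESeq2 1.42.0 and other alternatives are given in the closing section. Plots were made in Python 3.11.15 (matplotlib 3.10.9).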

Additional observations from a re-analysis of the deposited data

Results flagged for a closer look

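For 8 named genes the poly(A)+ to rRNA-depleted ratio differed between eggs and embryos at 2 and 3 h.p.f. by the interaction test in edgeR (Benjamini-Hochberg adjusted p under 0.05). Among all 13795 genes tested, 8.97% had a higher ratio and 15.8% a lower one, so this count says little about the named genes. For HyS0385.3 of the histone array, whose rRNA-depleted level rose in these embryos, the change was -7.21 (log2 scale, embryos minus eggs, copies summed, adjusted p = 6.11e-08). It was -2.39 for the glutamate receptor HyS0020.263 (adjusted p = 1.61e-08), -1.06 for Etv3 (HyS0030.200, adjusted p = 9.39e-07) and -0.76 for Smaug (HyS0016.179, adjusted p = 1.55e-05). The change was -1.31 for the retrovirus-related model HyS4714.1 (adjusted p = 0.0442), a call lost under 10 of the alternatives. The rRNA-depleted level of HyS4714.1 also rose, from 2.03, 1.33 and 1.50 CPM in eggs of clutches A, C and D. In clutches A and C it was 2.88 and 3.57 CPM at 2 h.p.f. and 22.0 and 5.91 CPM at 3 h.p.f. Poly(A)+ levels of HyS4714.1 in these embryos were 0.156, 0.459, 2.07 and 0.722 CPM. In the other direction the change was 3.13 for HyS0316.1 on the 45S rRNA scaffold (adjusted p = 0.000268), 1.75 for the Sp5 homolog HyS0057.112 (adjusted p = 0.000998) and 0.31 for Sox4 (HyS0005.469, adjusted p = 0.033). HyS0316.1 had 1.27 and 0.321 CPM at 2 h.p.f. and 1.34 and 0.731 CPM at 3 h.p.f. in poly(A)+ libraries of clutches A and C, against 2.21 and 1.09 CPM and 2.43 and 1.27 CPM in rRNA-depleted libraries, so this change rests on few counts.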

How the results depend on the processing

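In the egg fit, counts of higher genes ranged from 2858 to 4476 and of lower genes from 3281 to 4099 over RLE, library size only, DESeq2, filterByExpr, no filter, no replicate block, identical models summed, each clutch left out, and a fit of all 14 sample pairs. Genes at least 2-fold lower ranged from 1406 to 1643, and those at least 2-fold higher from 116 (no replicate block) to 263 (without clutch C). Without the replicate block 2858 genes were higher and 3281 lower in eggs, and for the change at 2 and 3 h.p.f. 540 ratios were higher and 1437 lower. Higher ratios were 36.3% of calls with TMM, 47.6% with RLE, 45.3% with library size only and with DESeq2, 44.5% with no filter and 44% with identical models summed. Leaving out 1 sample gave 1000 to 1443 higher and 1724 to 2177 lower ratios. Library size only moved the medians of the first 3 quintiles of coding length to 0.43, 0.29 and 0.12, and of the quintiles of rRNA-depleted TPM to 0.0127, -0.0121, 0.015, 0.0735 and 0.31, with the median of all genes tested at 0.07 in place of 0.02. At a minimum of 5 TPM each median that could be recomputed moved by less than the spread between clutches. Values near 0 changed sign when 1 clutch was left out, with ranges of -0.0476 (without A) to 0.0556 for Etv3, -0.0156 (without D) to 0.0346 for HyS0109.11, and -0.9583 to 0.5752 (without A) for HyS0385.3. Egg calls of single genes lost without the block were those of Polynem (-0.52, adjusted p = 0.19), HyS0029.49 (2.92, adjusted p = 0.0893) and HyS0004.476 (-4.06, adjusted p = 0.0505), and changes of the ratio lost without it were those of Sox4 (0.30, adjusted p = 0.207), Sp5 (1.68, adjusted p = 0.0681) and HyS4714.1 (-1.33, adjusted p = 0.36). HyS0117.8 was called in the fit of all sample pairs (adjusted p = 0.0388). The cause was not tested. Of the egg values of single genes, 366 kept direction and call, 7 lost the call, 2 gained one and 3 changed sign. Counts under about 10 limit the zygotic and retrovirus-related members, and the pilot library without selection is shallow.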
